A study of Mus musculus with 28 samples.

Results

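The interleukin-6 (IL-6) family was followed through 9 of the 25251 genes measured, taken from the table by gene symbol: the ligands Il6, Lif, Osm and Il11, the receptors Il6ra, Il6st, Lifr and Osmr, and the transcription factor Stat3. RNA came from mouse BM sorted into endothelial cells (ECs; CD45-Ter119-CD31+), mesenchymal stromal cells (MSCs; CD45-Ter119-CD31-CD166-Sca1+) and total mononuclear cells (MNCs). Mice were 8 to 10 wk old and were either Flt3+/+ (labelled WT, strain C57 BL6) or Flt3 ITD/ITD (labelled Flt3-ITD knock-in), with an internal tandem duplication knocked into both alleles of the receptor gene Flt3. The paper places the knock-in mice on the same C57 BL6 background. Each genotype contributed 5 EC, 5 MSC and 4 MNC libraries, which gives 28, and a library held 100 sorted ECs or MSCs or 200 MNCs. The knock-in is constitutive, so every cell of a Flt3 ITD/ITD mouse carried it, and nothing was deleted that the RNA of Flt3 could check. Flt3 ranged from 2.53 to 6.96 RPKM (read number scaled to transcript length and to the mapped reads of the library) in Flt3+/+ MNCs and from 6.91 to 14.81 RPKM in Flt3 ITD/ITD MNCs.

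Total counts ranged from 6377013 to 33880743 per library. The sorted populations matched their labels by the defining markers. Cdh5, which encodes VE-cadherin, ranged from 164.74 to 251.75 RPKM in ECs and did not exceed 0.19 RPKM in MSCs. Pdgfrb, a marker of mesenchymal cells, ranged from 11.43 to 24.97 RPKM in MSCs and did not exceed 3.85 RPKM in ECs. Ptprc, which encodes CD45, ranged from 124.93 to 160.84 RPKM in MNCs. Among sorted cells, Flt3 ITD/ITD EC replicate 2 held 778 counts of Ptprc and a summed RPKM of 21559.39 over the 12 leukocyte markers, where the median of the 10 EC libraries was 60.5. Flt3 ITD/ITD MSC replicate 5 held 32 counts of Ptprc and a leukocyte sum of 4946.66, where the median of the 10 MSC libraries was 28.4. These are the 2 libraries with leukocyte transcripts named below, and results that they moved are given with and without them. Lower leukocyte sums that still exceeded the medians were found in Flt3+/+ EC replicate 1 (1269.95), Flt3 ITD/ITD MSC replicate 3 (482.8) and Flt3+/+ MSC replicate 5 (232.1). Their counts of Ptprc were 0, 0 and 17. They were kept in fits without the 2 libraries, so those fits did not remove every library with blood cell transcripts.

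IL-6 family cytokines act through receptors that share the signal-transducing chain gp130, encoded by Il6st. IL-6 first binds its own receptor Il6ra, leukemia inhibitory factor binds Lifr, oncostatin M binds Osmr or Lifr, and each complex with gp130 activates JAK kinases, which phosphorylate STAT3. In BM the family is known for acute-phase and inflammatory signaling, for support of hematopoietic progenitors by stroma and for the control of bone cells. Il6 and Lif are also known as genes that cells switch on within a short time of stress or stimulation.

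All 9 genes have a position in RefSeq (GRCm38.p6, the mm10 build of the authors' transcripts). Osm (chr11:4236785-4241026) and Lif (chr11:4257568-4272514) lie 16541 bases apart. Osmr (chr15:6813568-6874968) and Lifr (chr15:7090610-7197489) lie 215641 bases apart. Il6 lies at chr5:30013114-30019975, Il11 at chr7:4772373-4782907, Il6ra at chr3:89869324-89913196, Il6st at chr13:112464070-112506860 and Stat3 at chr11:100886806-100939594. RefSeq promoters were at hand for 8 members, in 10 windows of 250 bases before a start site, and all 250 bases of each were searched, also where an annotated exon of the gene covers them. The sequence TGANTCA, bound by AP-1 factors such as Fos and Jun, occurred in 3 of these windows, those of Il6, Lif and an inner start site of Il11. It occurred in 6.75% of 32851 mouse promoter windows of the same length. A match to the NF-kB motif, read on both strands as the other motifs were, occurred in the window of Il6 and in 1.21% of all windows. The sequences TTCNNNGAA, bound by STAT factors (7.02% of all windows), TGACGTCA (1.55%) and TATAAA (12.4%) had no match in the members' windows on either strand. The 3 windows with a match are shown because they belong to the ligands that were called higher in MSCs than in MNCs, with AP-1 and NF-kB matches in capitals. They are at chr5:30012864-30013113 (plus strand), chr11:4257318-4257556 (plus strand, ending where an annotated exon starts) and chr7:4778142-4778391 (minus strand, within the gene), each printed 5′ to 3′ on the gene's strand.
Il6: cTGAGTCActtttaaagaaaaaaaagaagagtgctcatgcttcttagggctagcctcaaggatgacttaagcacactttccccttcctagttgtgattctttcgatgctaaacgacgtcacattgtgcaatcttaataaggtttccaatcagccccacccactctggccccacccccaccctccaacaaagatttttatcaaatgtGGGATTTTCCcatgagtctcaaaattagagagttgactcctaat
Lif: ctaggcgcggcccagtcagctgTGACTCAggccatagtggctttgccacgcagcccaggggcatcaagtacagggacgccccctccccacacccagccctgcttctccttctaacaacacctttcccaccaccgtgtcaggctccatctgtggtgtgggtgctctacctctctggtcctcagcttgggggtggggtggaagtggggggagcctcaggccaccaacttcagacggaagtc
Il11: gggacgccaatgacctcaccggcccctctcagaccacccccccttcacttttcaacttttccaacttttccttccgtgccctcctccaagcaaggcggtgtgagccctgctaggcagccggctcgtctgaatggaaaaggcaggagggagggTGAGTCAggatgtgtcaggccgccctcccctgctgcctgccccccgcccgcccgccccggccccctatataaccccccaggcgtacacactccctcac
These matches describe the letters of the windows only, and binding was not measured.

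The members differed far more between populations than between genotypes. In a single edgeR quasi-likelihood model of all 28 libraries, calling a gene required a Benjamini-Hochberg adjusted p-value under 0.1 together with mean RPKM that differed by 1 or more on the log2 scale. Between MSCs and ECs, 6 of 9 members were called, 4 higher and 2 lower in MSCs, where 32.9% of 16897 genes were called, 16.6% higher and 16.3% lower. Between ECs and MNCs, 7 of 9 were called, 5 higher and 2 lower in ECs, where 45% of all genes were called, 23.1% higher and 22% lower. Between MSCs and MNCs, 6 of 9 were called, 5 higher and 1 lower in MSCs, where 44.3% of all genes were called, 22.2% higher and 22% lower. At an unadjusted p below 0.05, 42.1%, 52.4% and 51.2% of all genes passed in these 3 comparisons. The median log2 fold change of the members was 1.59 when MSCs were set against ECs, 1.08 when ECs were set against MNCs and 2.67 when MSCs were set against MNCs, and over all genes it was 0.014, 0 and -0.021. The 3 contrasts share libraries, and the population was tied to the number of cells in a library, 100 or 200, so these cannot be told apart in comparisons with MNCs. The paper describes bone lining cells, the source of ECs and MSCs, as released from crushed bone with the enzyme collagenase. It does not say separately how MNCs were prepared. Any difference in tissue or preparation was not tested and is likewise tied to population in these comparisons. Without the 2 libraries with leukocyte transcripts, 4 of 8 members tested were called between MSCs and ECs, 7 of 8 between ECs and MNCs and 6 of 8 between MSCs and MNCs. The member no longer tested was Lif, which then failed the filter on low counts. In Flt3+/+ libraries alone, 3 of 8 members tested were called between MSCs and ECs: Osm (adjusted p = 0.194) and Il11 (adjusted p = 0.13) lost their call, and Lif was again not tested. The shares of all genes called in these fits with fewer libraries are not given here. The lower counts are therefore not read as a result about the members.

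**Figure D1:**
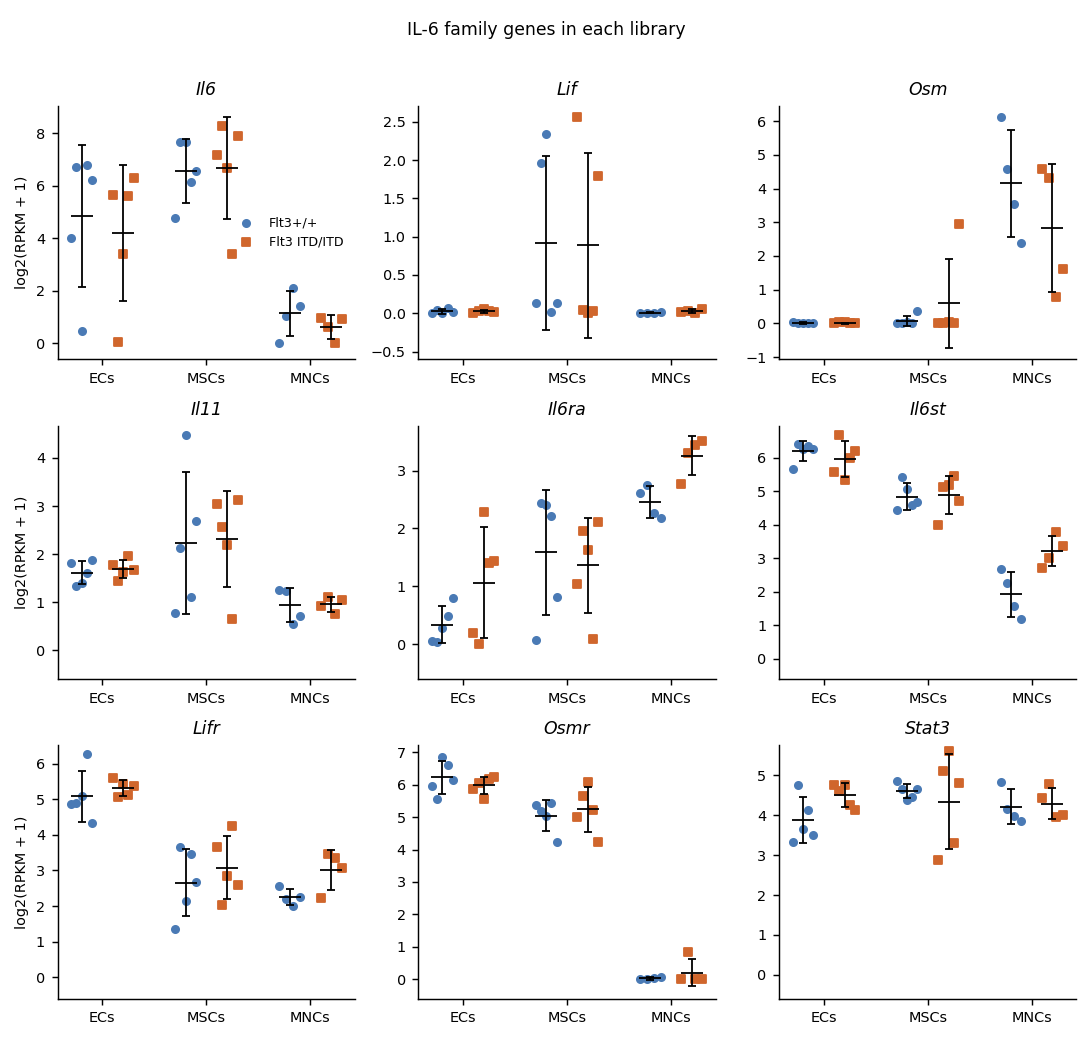
RPKM of the 9 genes in each library, on a log2(RPKM + 1) axis, with Flt3+/+ libraries as circles and Flt3 ITD/ITD libraries as squares; black bars give the mean and SD of a group (n = 5, or n = 4 in MNCs). Osm was high in MNCs, Il6st, Lifr and Osmr were high in ECs, and Lif was above 1 RPKM in 4 MSC libraries.

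Il6, the founding ligand of the family, was abundant in stroma and scarce in MNCs. In Flt3+/+ MSCs it was at 26.37, 199.13, 202.47, 68.65 and 93.37 RPKM in replicates 1 to 5, and in Flt3 ITD/ITD MSCs at 142.78, 304.4, 99.47, 9.58 and 237.27 RPKM. In Flt3+/+ ECs it was at 15.04, 104.85, 0.38, 109.38 and 73.08 RPKM, and in Flt3 ITD/ITD ECs at 49.52, 0.03, 9.54, 48.06 and 77.11 RPKM. The EC libraries thus ranged from 1 to 3681 counts, and Flt3+/+ replicate 3 and Flt3 ITD/ITD replicate 2 were nearly empty of Il6. MNC libraries ranged from 0 to 3.25 RPKM with a median of 0.92, and every MSC library lay above every MNC library, which held for 21.5% of genes in either direction. Il6 was higher than in MNCs by a log2 fold change of 6.98 (SE 1.21) in MSCs (edgeR adjusted p = 3.5e-05) and of 5.23 (SE 1.11) in ECs (edgeR adjusted p = 0.000414). The difference between MSCs and ECs, a log2 fold change of 1.75 (SE 0.86), did not pass with edgeR (adjusted p = 0.123) and passed with DESeq2 (adjusted p = 0.0726) and with edgeR when Flt3 ITD/ITD MSC replicate 4 was left out (adjusted p = 0.0926).

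Lif, which encodes leukemia inhibitory factor, was above 1 RPKM in 4 of 10 MSC libraries. It was at 0.1, 2.91, 4.07, 0.01 and 0.1 RPKM in Flt3+/+ MSCs and at 4.92, 0.03, 0, 0.02 and 2.45 RPKM in Flt3 ITD/ITD MSCs. Of the 1631 counts in MSCs, nearly all came from 4 libraries, a pair of each genotype. ECs held 16 counts in all and MNCs 7, so that the count rate in MSCs was 78.2 times that in ECs (95% counting interval 48 to 137) and 132 times that in MNCs (63.7 to 328). These intervals cover counting error only, because reads copied by PCR, with no molecular tag to count, are not separate molecules. Lif was called higher in MSCs than in ECs (edgeR log2 fold change 6.41, SE 1.30, adjusted p = 0.000418) and than in MNCs (edgeR log2 fold change 7.34, SE 1.53, adjusted p = 0.000309). It passed the filter on low counts only through MSC libraries, where it was high, so these p-values are not support independent of those libraries. Of the 28 fits that left out 1 library, 24 still tested Lif. A difference between ECs and MNCs was not detectable at this depth.

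Osm, which encodes oncostatin M, showed the opposite distribution although it neighbors Lif. It was at 68.23, 22.79, 10.55 and 4.24 RPKM in Flt3+/+ MNCs and at 22.84, 19.01, 0.73 and 2.06 RPKM in Flt3 ITD/ITD MNCs. The 10 EC libraries held 3 counts in all, against 5436 in the MNC libraries, a ratio of count rates of 2460 (95% counting interval 842 to 11900). Of the 156 counts in MSCs, 136 came from Flt3 ITD/ITD replicate 5, the library with leukocyte transcripts, and 18 from Flt3+/+ replicate 5. The latter had the next highest mean log2(RPKM + 1) of leukocyte markers in MSCs. By summed RPKM it was lower (232.1) than Flt3 ITD/ITD MSC replicate 3 (482.8), which held 1 count of Osm. Flt3 ITD/ITD EC replicate 2, with a leukocyte sum of 21559.39, also held 1 count. The part of leukocytes in the Osm counts of MSCs was not tested. Osm was called higher in MSCs than in ECs (edgeR log2 fold change 4.92, SE 1.43, adjusted p = 0.00943). That call was lost without Flt3 ITD/ITD MSC replicate 5 (log2 fold change 1.22, adjusted p = 0.528), without Flt3+/+ MSC replicate 5 (3.39, adjusted p = 0.212) and without the 2 libraries with leukocyte transcripts (1.41, adjusted p = 0.49). Against MNCs, Osm was lower in ECs (edgeR log2 fold change -10.73, SE 1.69, adjusted p = 1.11e-05) and in MSCs (edgeR log2 fold change -5.81, SE 1.33, adjusted p = 0.000789), and the latter was -9.51 without those libraries.

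Il11, a ligand known for its part in stromal and bone biology, was low throughout. It ranged from 1.54 to 2.87 RPKM in ECs (mean 2.16 ± 0.453, SD, n = 10) and from 0.46 to 1.37 RPKM in MNCs (mean 0.954 ± 0.339, SD, n = 8), without overlap, which held for 18.5% of genes in this comparison. In MSCs it was at 0.71, 3.36, 21.29, 1.14 and 5.46 RPKM in Flt3+/+ mice and at 7.28, 4.88, 3.57, 0.57 and 7.76 RPKM in Flt3 ITD/ITD mice, a wider spread than in either other population. Il11 was called higher in MSCs than in ECs (edgeR log2 fold change 1.59, SE 0.48, adjusted p = 0.0125) and than in MNCs (edgeR log2 fold change 2.67, SE 0.55, adjusted p = 0.000263). In the difference between ECs and MNCs (edgeR log2 fold change 1.08, SE 0.51, adjusted p = 0.0901) the call was lost with another scaling of libraries (adjusted p = 0.101), in Flt3+/+ libraries alone (adjusted p = 0.389) and in 9 of 28 fits that left out 1 library (adjusted p up to 0.157), namely Flt3+/+ EC replicate 5, Flt3 ITD/ITD EC replicate 4, Flt3+/+ MNC replicates 2, 3 and 4 and each of the 4 Flt3 ITD/ITD MNC replicates. Without Flt3+/+ MSC replicate 3, the difference between MSCs and ECs was 0.93 and missed the call (adjusted p = 0.0773).

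Il6ra, the receptor chain specific for IL-6, was highest in MNCs. It was at 5.1, 5.77, 3.81 and 3.54 RPKM in Flt3+/+ MNCs and at 5.78, 8.9, 9.92 and 10.41 RPKM in Flt3 ITD/ITD MNCs. In ECs the median was 0.31 RPKM and the highest value 3.87 RPKM, and in MSCs the median was 2.485 RPKM with a range from 0.05 to 4.43. Il6ra was called lower in ECs than in MNCs (edgeR log2 fold change -3.38, SE 0.87, adjusted p = 0.00243) and higher in MSCs than in ECs (edgeR log2 fold change 1.97, SE 0.80, adjusted p = 0.0611). The latter call was lost without Flt3+/+ MSC replicate 2 (adjusted p = 0.103). The difference between MSCs and MNCs did not pass (edgeR log2 fold change -1.40, SE 0.82, adjusted p = 0.173), and passed without the 2 libraries with leukocyte transcripts (-1.53, adjusted p = 0.0971).

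Il6st, the chain shared by the family, had the reverse order. It was at 50.19, 85.04, 76.23, 81.36 and 75.49 RPKM in Flt3+/+ ECs and at 47.22, 102.27, 39.46, 62.79 and 72.23 RPKM in Flt3 ITD/ITD ECs, with a mean of 69.2 ± 19.3 (SD, n = 10). The mean was 29.6 ± 9.26 (SD, n = 10) in MSCs, where libraries ranged from 15.11 to 42.96 RPKM, and 5.91 ± 3.81 (SD, n = 8) in MNCs. All EC and all MSC libraries lay above all MNC libraries. Il6st was called higher in ECs (edgeR log2 fold change 3.70, SE 0.29, adjusted p = 1.7e-10) and in MSCs (edgeR log2 fold change 2.74, SE 0.28, adjusted p = 1.33e-08) than in MNCs, and lower in MSCs than in ECs (edgeR log2 fold change -0.96, SE 0.24, adjusted p = 0.003). On the RPKM scale, Il6ra made up 43.9% to 73.6% of the sum of Il6ra and Il6st in MNC libraries (median 54%). Its share did not exceed 13.4% in any MSC library (median 7.15%) or 8.93% in any EC library (median 0.392%).

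Lifr, the receptor chain for leukemia inhibitory factor, was highest in ECs. It was at 28.12, 28.41, 32.82, 75.9 and 19.1 RPKM in Flt3+/+ ECs and at 47.17, 32.41, 42.3, 33.53 and 40.56 RPKM in Flt3 ITD/ITD ECs. Every EC library lay above every MSC library, where Lifr ranged from 1.57 to 18.09 RPKM, and among all genes 8.36% separated ECs and MSCs without overlap. Lifr was called lower in MSCs than in ECs (edgeR log2 fold change -2.10, SE 0.38, adjusted p = 0.000107) and higher in ECs than in MNCs (edgeR log2 fold change 2.68, SE 0.42, adjusted p = 1.15e-05). MSCs and MNCs did not differ beyond their spread (edgeR log2 fold change 0.58, SE 0.39, adjusted p = 0.246). Lif, its ligand, thus had 4 libraries above 1 RPKM in MSCs, the population with the lower Lifr level of the sorted pair.

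Osmr, the specific chain of the oncostatin M receptor, was abundant in stroma and nearly absent from MNCs. It was at 60.68, 46.49, 115.09, 96.46 and 70.07 RPKM in Flt3+/+ ECs and at 57.22, 65.37, 46.06, 71.72 and 73.8 RPKM in Flt3 ITD/ITD ECs. In MSCs it was at 40.35, 35.36, 31.55, 41.96 and 17.79 RPKM in Flt3+/+ mice and at 31.17, 49.18, 66.9, 36.13 and 17.82 RPKM in Flt3 ITD/ITD mice. Of the 83 counts in the 8 MNC libraries, 78 came from Flt3 ITD/ITD replicate 2, which also had the highest sum of mesenchymal markers among MNC libraries, 35.96 RPKM where the median was 5.39; the part of stromal cells in that value was not tested. The count rate was 454 times higher in ECs (95% counting interval 366 to 570) and 255 times higher in MSCs (205 to 320) than in MNCs. Without Flt3 ITD/ITD MNC replicate 2, a comparison added after seeing the data, 5 counts remained in MNCs and the ratios were 6510 (2790 to 20000) and 3650 (1560 to 11200). Osmr was called in both comparisons (edgeR log2 fold change 9.77, SE 0.95, adjusted p = 7.09e-09 for ECs; 9.10, SE 0.93, adjusted p = 1.41e-08 for MSCs). The difference between MSCs and ECs, a log2 fold change of -0.67 (SE 0.57), did not pass (edgeR adjusted p = 0.403). In fits that left out 1 library, its edgeR adjusted p ranged from 0.0927 to 0.508, and it was not called in any of them. Osm and Osmr were thus measured at high level in different populations, the ligand in MNCs and its receptor in ECs and MSCs.

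Stat3, the transcription factor that the receptors share, had the most even level of the 9 genes. Its mean was 18.4 ± 6.76 RPKM (SD, n = 10) in ECs, 24.1 ± 11.8 (SD, n = 10) in MSCs and 18.7 ± 5.63 (SD, n = 8) in MNCs. It was not called in any of the 3 population contrasts. The log2 fold change of 0.64 (SE 0.27) between MSCs and ECs passed on the adjusted p-value alone (edgeR adjusted p = 0.0756) and missed the fold rule.

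**Figure D2:**
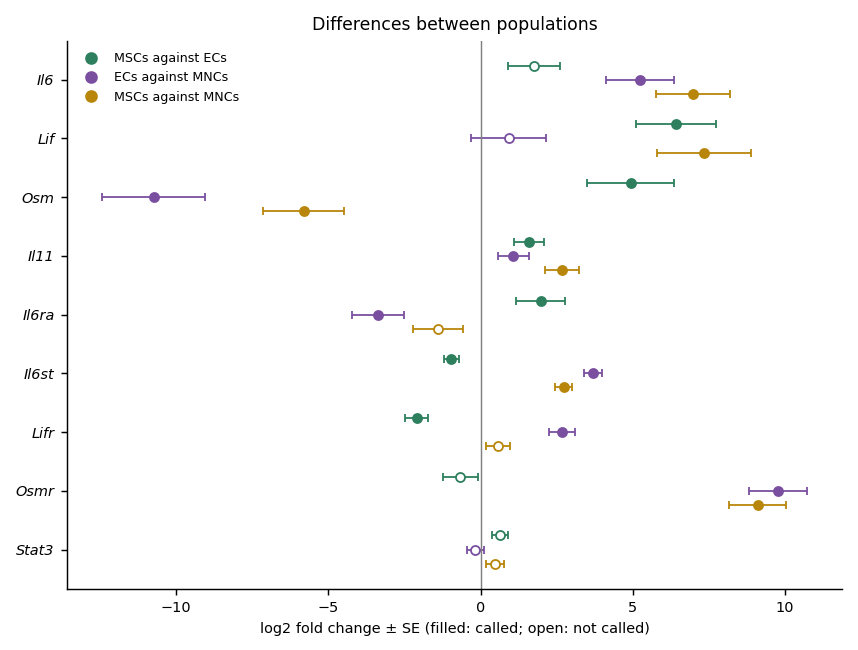
Log2 fold change of each gene between populations with its SE, from the edgeR model of 28 libraries; filled points were called and open points were not. Osmr lay at 9.77 and 9.10 against MNCs, Osm at -10.73 and -5.81, and all 3 values of Stat3 were open and between -0.17 and 0.64.

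The study asked how Flt3-ITD changes the niche, and edgeR called no member between genotypes in any population. The paper accepted a gene that passed with either DESeq2 or edgeR, and it reported far more genes in each population than edgeR called here. For Il6, the paper likewise reported no significant effect of genotype in ECs and MSCs. In ECs, 0 of 7 members that passed the filter on low counts were called, where 0.0081% of 12351 genes were. In MSCs it was 0 of 8, where 0.0295% of 13574 genes were called, and in MNCs 0 of 7, where 0.0144% of 13926 genes were called. At an unadjusted edgeR p below 0.05 there were 0, 0 and 3 members, where 4.99%, 4.24% and 10.4% of all genes passed. DESeq2 called 0, 0 and 1 members, the last being Il6st. These counts are not set against the share of all genes that DESeq2 called, so they are not compared with a background. The exact permutation test of mean RPKM, run on 27 pairs of member and population, gave no adjusted p below 0.1, with 2 raw p below 0.05. Its smallest possible raw p was 0.00794 for 5 against 5 libraries and 0.0286 for 4 against 4. After adjustment over 27 tests, a single member with fully separated genotypes could not fall below 0.1. The adjusted result is therefore not read as an absence of genotype effects. Libraries of a genotype came from separate mice.

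In ECs and MSCs the libraries of the genotypes overlapped for every member, and the genotypes were apart for 1.14% of genes in ECs and 0.914% in MSCs. Mean Il6 was 60.6 ± 50.5 RPKM in Flt3+/+ ECs and 36.9 ± 31.7 in Flt3 ITD/ITD ECs (SD, n = 5 each; exact permutation p = 0.405), and 118 ± 79.3 and 158.7 ± 115.5 in MSCs (exact permutation p = 0.532). The edgeR log2 fold changes were -0.79 (SE 1.36) in ECs and 0.46 (SE 0.72) in MSCs. Changes of Il6 smaller than severalfold could not be shown with this spread. Il6ra had the largest change in ECs, with a mean of 0.288 ± 0.299 RPKM in Flt3+/+ mice and 1.47 ± 1.56 in Flt3 ITD/ITD mice (SD, n = 5 each; log2 fold change 2.35, SE 1.40, edgeR adjusted p = 1; exact permutation p = 0.143). In Flt3 ITD/ITD ECs it was at 0.14, 0, 3.87, 1.66 and 1.7 RPKM, and in Flt3+/+ ECs at 0.04, 0.03, 0.22, 0.4 and 0.75 RPKM. In all, 3 Flt3 ITD/ITD libraries were above all of Flt3+/+ and 1 was below all of them. Stat3 was at 9.03, 26.12, 11.55, 16.53 and 10.31 RPKM in Flt3+/+ ECs and at 26.23, 23.42, 25.98, 18.26 and 16.39 RPKM in Flt3 ITD/ITD ECs (log2 fold change 0.60, SE 0.34, edgeR adjusted p = 1; exact permutation p = 0.111). In MSCs, Stat3 spread more widely in Flt3 ITD/ITD mice, at 6.35, 33.36, 47.97, 8.85 and 27.11 RPKM, than in Flt3+/+ mice, at 28.12, 24.06, 20, 21.05 and 24.34 RPKM, with means of 24.7 and 23.5. The SDs were 17.4 and 3.19, and their difference was not tested.

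**Figure D3:**
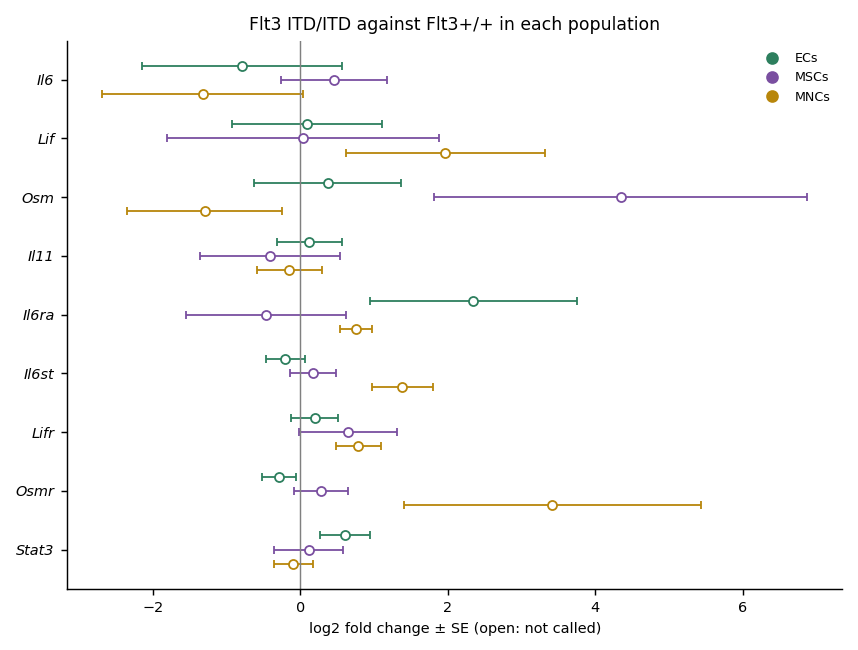
Log2 fold change of each gene in Flt3 ITD/ITD against Flt3+/+ libraries with its SE, by population, from edgeR; all points are open because none was called. In MNCs, Il6ra lay at 0.76, Il6st at 1.38 and Lifr at 0.79; values of Lif and Osm in ECs, of Osm in MSCs and of Lif and Osmr in MNCs come from a fit without the low-count filter and rest on few counts or 1 library.

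In MNCs the 3 receptors that could be tested had higher means in Flt3 ITD/ITD mice and did not pass the adjusted threshold with edgeR, while Il6st passed with DESeq2. Il6st was at 5.42, 3.81, 1.98 and 1.27 RPKM in Flt3+/+ MNCs and at 5.53, 7.12, 12.7 and 9.42 RPKM in Flt3 ITD/ITD MNCs. Il6ra and Il6st were higher in 4 of 4 Flt3 ITD/ITD libraries than in every Flt3+/+ library, a separation shown by 6.71% of 13926 genes in MNCs. For both, the exact permutation p was 0.0286, the smallest that 4 against 4 allows, and 0.386 after adjustment over the 27 tests. Mean Il6st was 3.12 ± 1.87 RPKM in Flt3+/+ and 8.69 ± 3.11 RPKM in Flt3 ITD/ITD MNCs, a ratio of 2.79, and mean Il6ra was 4.56 ± 1.06 and 8.75 ± 2.08 RPKM, a ratio of 1.92 (SD, n = 4 each). The edgeR log2 fold changes were 1.38 (SE 0.41, unadjusted p = 0.00773, adjusted p = 0.415) and 0.76 (SE 0.22, unadjusted p = 0.00764, adjusted p = 0.415). Lifr was at 4.92, 3.63, 3.01 and 3.73 RPKM against 3.64, 9.99, 9.12 and 7.42 RPKM (log2 fold change 0.79, SE 0.31, edgeR adjusted p = 0.439). DESeq2 called Il6st (log2 fold change 1.39, adjusted p = 0.0472), gave Il6ra an adjusted p of 0.0909 below the fold rule, and did not call Lifr (adjusted p = 0.214). MNCs are a mixture, so a change in the share of a cell type and a change in RNA per cell cannot be told apart. Summed leukocyte markers ranged from 120445.61 to 161831.26 RPKM in Flt3+/+ MNCs and from 46528.06 to 132208.35 RPKM in Flt3 ITD/ITD MNCs, and erythroid markers from 13.07 to 7145.46 and from 166.37 to 1007.27 RPKM; their part in the receptor values was not tested.

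The genotype effect on Il6st differed between ECs and MNCs at an unadjusted edgeR p of 0.00442 for the interaction, with a log2 difference of -1.60 (SE 0.51) for ECs minus MNCs, and the adjusted p was 0.372. No member was called in any of the 3 interaction contrasts, where 0.379%, 0.0118% and 0.00592% of 16897 genes were called for ECs against MSCs, ECs against MNCs and MSCs against MNCs. At an unadjusted p below 0.05 there were 0, 2 and 3 members, where 10.6%, 8.23% and 5.94% of genes passed.

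MNC libraries also fell into separate clusters by immediate-early genes, a list of 13 genes such as Fos and Egr1 that cells transcribe within minutes of handling or stimulation. Their mean log2(RPKM + 1) ranged from 3.77 to 4.71 in replicates 1 and 2 of both genotypes and from 1.71 to 1.94 in replicates 3 and 4. Osm followed this division, at 19.01 to 68.23 RPKM in replicates 1 and 2 and at 0.73 to 10.55 RPKM in replicates 3 and 4. The labels do not name a batch. Within replicates 1 and 2, a division seen in the data and added afterwards, the edgeR log2 fold change of Il6st was 0.52 (SE 0.30, adjusted p = 0.826), and within replicates 3 and 4 it was 2.40 (SE 0.44, adjusted p = 0.0595). For Il6ra the values were 0.44 (adjusted p = 0.877) and 1.05 (adjusted p = 0.111), and for Osm -1.11 (adjusted p = 0.811) and -2.85 (adjusted p = 0.108). With a term for the division, Il6st had a log2 fold change of 1.45 (SE 0.44, edgeR adjusted p = 0.363).

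**Figure D4:**
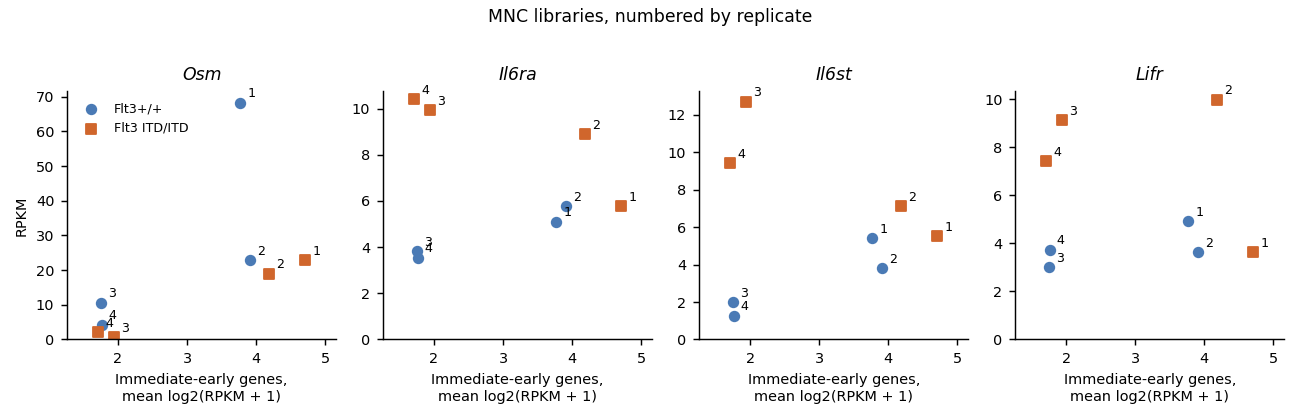
RPKM of Osm, Il6ra, Il6st and Lifr in the 8 MNC libraries against the mean log2(RPKM + 1) of 13 immediate-early genes, with Flt3+/+ libraries as circles, Flt3 ITD/ITD libraries as squares and the replicate number beside each. Replicates 3 and 4 lie between 1.71 and 1.94 on the horizontal axis; there Il6st was at 1.98 and 1.27 RPKM in Flt3+/+ and at 12.7 and 9.42 RPKM in Flt3 ITD/ITD mice.

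Immediate-early genes were higher in stroma than in MNCs, and the part of cell preparation in this was not tested. Of these genes, 12 of 13 were called in ECs and 12 of 13 in MSCs against MNCs, where 23.1% and 22.2% of all genes were called higher. Their mean level divided the EC libraries into 4 from 5.46 to 6.38 and 6 from 7.01 to 7.39, and the MSC libraries into 3 from 5.31 to 6.06 and 7 from 6.87 to 7.49. The 3 MSC libraries with the lower level had 9.58, 26.37 and 68.65 RPKM of Il6, the lowest 3 of the 10. In Il11 they had 0.57, 0.71 and 1.14 RPKM, again the lowest 3. The 4 EC libraries with the lower level had 0.38, 104.85, 9.54 and 0.03 RPKM of Il6, and the other 6 ranged from 15.04 to 109.38 RPKM. The relation of 6 members to this level was not part of the planned tests. It was computed first over all 10 libraries of each population, which gave 12 relations. After the values and their plot had been seen, the libraries were divided at the largest gap and the relation was computed again within the larger cluster, which gave 12 more, and p-values were adjusted over all 24. Over all 10 libraries, Il6 and Il11 in MSCs passed by Pearson r (permutation test, adjusted p = 0.0256 for each) and did not pass by Spearman rho (permutation test, adjusted p = 0.363 and 0.347), and both rested on the division into clusters, so no pooled r is given. Il11 in ECs also passed by Pearson r over all 10 libraries (permutation test, adjusted p = 0.0797) and not by Spearman rho (permutation test, adjusted p = 0.363). Within the larger cluster of 6 ECs its r had the opposite sign (r = -0.791, exact permutation p = 0.075, adjusted 0.3). Within the cluster of 7 MSCs, Il6 showed no relation (r = 0.033, exact permutation p = 0.947; rho = -0.25, exact permutation p = 0.595), nor did Il6 in the 6 ECs (r = 0.453, exact permutation p = 0.39; rho = 0.543, exact permutation p = 0.297). In those 6 ECs, Lifr had r = 0.948 (exact permutation p = 0.00278, adjusted 0.0256) and rho = 1 (exact permutation p = 0.00278, adjusted 0.0667), with r = 0.974 without the 2 libraries farthest from the median. This relation of Lifr did not pass over all 10 EC libraries (permutation test, raw p = 0.39), and it was found in a subset chosen after the data were seen. In the 7 MSCs, Stat3 had r = -0.918 (exact permutation p = 0.0109, adjusted 0.0654) and rho = -0.857 (exact permutation p = 0.0238, adjusted 0.286), which rested on 2 libraries, as r was -0.256 without them.

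**Figure D5:**
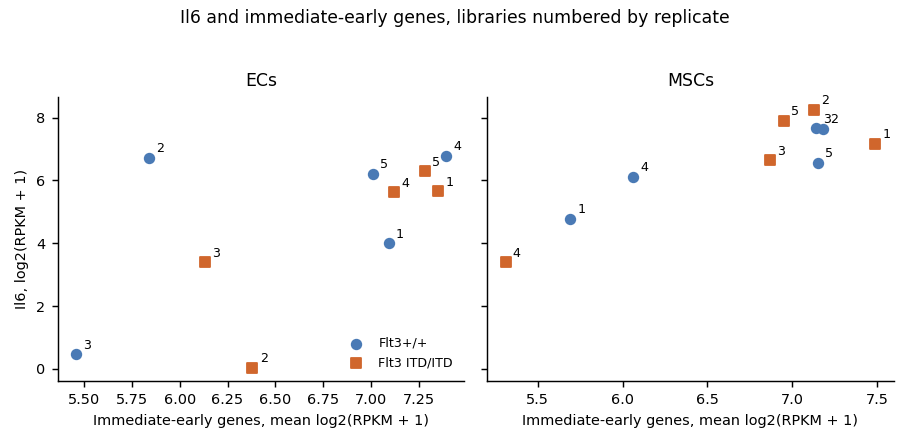
Il6 as log2(RPKM + 1) against the mean log2(RPKM + 1) of 13 immediate-early genes in ECs (left) and MSCs (right), with Flt3+/+ libraries as circles, Flt3 ITD/ITD libraries as squares and the replicate number beside each. The 3 MSC libraries at or below 6.06 on the horizontal axis had the lowest Il6 of the population, and the other 7 showed no trend (r = 0.033).

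Other genes of the pathway were taken from a list of 51, covering further ligands and receptors, kinases and adaptors, inhibitors, reported STAT3 targets and regulators of Il6 mRNA. Of 47 tested, 13 were called between MSCs and ECs (9 higher and 4 lower in MSCs), 23 between ECs and MNCs (14 higher and 9 lower in ECs) and 27 between MSCs and MNCs (18 higher and 9 lower in MSCs), against shares of 32.9%, 45% and 44.3% over all genes. Without the 2 libraries with leukocyte transcripts the counts were 11, 23 and 26, and the shares of all genes in that fit are not given here. Of further ligands, Ebi3 and Il27, which encode the subunits of IL-27, were found in MNCs and had no count in any EC library. They were at least 4420-fold and 58.9-fold higher in MNCs, taking 3 counts over the EC libraries as the floor. Il27 had no count in MSCs either (at least 76.7-fold higher in MNCs), while 87 of the 88 counts of Ebi3 in MSCs came from Flt3 ITD/ITD replicate 5, the library with leukocyte transcripts.

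Il11ra1, the receptor of IL-11, was higher in MSCs than in ECs (edgeR log2 fold change 4.11, SE 0.76, adjusted p = 0.000147), with a mean of 70.3 ± 41.2 RPKM (SD, n = 10) against 4.63 ± 5.26 (SD, n = 10). Il11 and its receptor were thus both called higher in MSCs than in the other populations. Near-identical copies of Il11ra1 exist in the mouse, and since reads mapping to more than 1 place were discarded, its level is uncertain. Il27ra was lower in MSCs than in ECs (edgeR log2 fold change -5.00, SE 1.38, adjusted p = 0.00738) and than in MNCs, with 1 count in all MSC libraries, while a single EC library held 151 counts.

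Of 7 inhibitors, Socs1, Socs2 and Socs3 were higher in both sorted populations than in MNCs, where 23.1% of all genes were higher in ECs and 22.2% in MSCs, and Pias3 was lower in ECs. Socs3, which STAT3 induces and which binds gp130, had means of 26.7 ± 10.4 RPKM (SD, n = 10) in ECs, 45.5 ± 23.9 (SD, n = 10) in MSCs and 1.44 ± 1.93 (SD, n = 8) in MNCs (edgeR log2 fold change against MNCs 4.17, SE 0.71, adjusted p = 3.24e-05 in ECs; 5.14, SE 0.75, adjusted p = 3.41e-06 in MSCs). Socs2 was higher in ECs than in MNCs (edgeR log2 fold change 4.08, SE 0.28, adjusted p = 1.76e-11). Of 16 STAT3 targets tested, 5 were higher and 2 lower in MSCs than in ECs, 5 higher and 3 lower in ECs than in MNCs, and 8 higher and 3 lower in MSCs than in MNCs. Over all genes the shares called were 32.9%, 45% and 44.3%, so that 7 and 8 of 16 in the comparisons with ECs were near the background. Timp1, a secreted inhibitor of metalloproteinases, was the target with the largest rise in MSCs, against ECs (edgeR log2 fold change 5.46, SE 1.17, adjusted p = 0.000739) and against MNCs (9.03, SE 1.54, adjusted p = 3.01e-05). Lcn2, a neutrophil granule protein as well as a STAT3 target, was lower in ECs than in MNCs (edgeR log2 fold change -7.29, SE 1.44, adjusted p = 0.000186). Flt3 ITD/ITD EC replicate 2, with leukocyte transcripts, had 567.33 RPKM of Lcn2 and the other EC libraries at most 25.65, and without the libraries with leukocyte transcripts the log2 fold change was -9.45 (SE 1.40, edgeR adjusted p = 7.08e-06). Il4ra was lower in MSCs than in ECs (-1.66, SE 0.40, adjusted p = 0.00211). Among 7 regulators of Il6 mRNA, Nfkbiz, Zc3h12a, Zfp36 and Rc3h1 were higher in ECs and in MSCs than in MNCs and none was called between MSCs and ECs. Zc3h12a and Rc3h1 encode nucleases or binding proteins that shorten the life of Il6 mRNA, and Nfkbiz encodes a cofactor of its transcription.

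For the genotype, ECs had 0 of 42 pathway genes called, MSCs had 0 of 43 and MNCs had 1 of 44, where 0.0081%, 0.0295% and 0.0144% of all genes were called. With the smallest adjusted p in ECs, Zfp36 (edgeR log2 fold change 0.48, SE 0.17, adjusted p = 0.927), Tyk2 (-2.24, SE 0.89, adjusted p = 0.935) and Pias3 (-2.14, SE 1.18, adjusted p = 1) were not called. In MSCs, Ptpn2 (edgeR log2 fold change 1.10, SE 0.32), Hp (3.22, SE 1.11) and Timp1 (-1.01, SE 0.46) were not called, each with an adjusted p of 0.999. At an unadjusted p below 0.05 there were 2 in ECs, 2 in MSCs and 3 in MNCs, where 4.99%, 4.24% and 10.4% of all genes passed. DESeq2 called 0, 1 and 1, again not set against the share of all genes that it called. The gene called in MNCs was Socs2, an inhibitor that STAT5, the main STAT of Flt3-ITD signaling, induces. It was at 1.2, 1.86, 0.26 and 1.06 RPKM in Flt3+/+ MNCs and at 16.41, 12.21, 18.37 and 18.27 RPKM in Flt3 ITD/ITD MNCs (edgeR log2 fold change 3.72, SE 0.44, adjusted p = 0.0779), and 7 of the 8 fits that left out 1 library did not call it. Its genotype effect was smaller in ECs than in MNCs (edgeR interaction -3.56, SE 0.50, adjusted p = 0.00329) and in MSCs than in MNCs (-3.66, SE 0.50, adjusted p = 0.00214).

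Genes with the most similar pattern over the 28 libraries were taken from those with a mean RPKM of at least 1, by Pearson r of log2(RPKM + 1). The libraries share populations, depth and preparation, so these values describe likeness and carry no test. For Il6 they were Coq10b (r = 0.899), Adm (0.895) and Hbegf (0.894), and for Lif AK041310 (0.872), Foxp2 (0.871) and Perp (0.841). For Osm they were D13Ertd608e (0.943), Mir6516 (0.941) and 1700047M11Rik (0.933), and for Il11 C7 (0.793), Nr4a1 (0.79) and Epha7 (0.777). Among receptors, Il6ra was most like Nup107 (0.847), Cmtm7 (0.844) and Runx2 (0.837), and Il6st most like Ece1 (0.958), Lrrc8a (0.951) and Dock1 (0.948). Lifr was most like Mast4 (0.907), Gpr116 (0.889) and Adcy4 (0.888), and Osmr most like Sparcl1 (0.986), Ly6a (0.982) and Nfib (0.98). Ly6a encodes Sca1, which the gate for MSCs used. Stat3 had no close match, with Txnrd1 (0.72), Fbxo21 (0.679) and Polb (0.627) ranked highest. After group means were removed, over the 20 EC and MSC libraries, Il6 was most like the stress response genes Dnajb1 (0.845), Tiparp (0.841) and Ppp1r15a (0.838), and Lif most like Perp (0.908), F3 (0.887) and Pilrb2 (0.867).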

How the data were processed

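The authors prepared libraries with the SMARTer Ultra Low kit, sequenced single-end reads of 51 bp, aligned them with Bowtie to mm10 transcripts and discarded reads mapping to more than 1 place. The authors deposited RSEM's estimated counts, which are whole numbers and were not normalized. The authors also deposited RPKM for the same 25251 genes, printed to 2 decimals. Counts served for tests across genes, and RPKM for the fold rule, single values and figures. Total counts lay between 6377013 and 33880743. The floor was set at 3 counts.

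Computations used R 4.3.3 with edgeR 4.0.16 (quasi-likelihood test, TMM scaling, package filter on low counts) and DESeq2 1.42.0 as alternative, and Python 3.11.15 with scipy 1.17.1 for exact two-sided permutation tests. Scripts were tested on simulated data. Groups came from the labels. Genotypes were compared within a population and populations in a single model of 28 libraries. SE was derived from the log2 fold change and its F value. Members removed by the filter were fitted without it. Likeness used log2 RPKM with a pseudocount of 1.

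Members and lists were chosen with earlier results of these data known. Of pathway genes, at most 3 called per direction and contrast were named by fold change, or the 3 with the smallest adjusted p where none was called. Other names were chosen after their values were seen. Alternatives covered scaling, filter, test, fold rule, replicate number as block, and left-out libraries. Some pathway genes that this rule selects are not reported here.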

Additional observations from a re-analysis of the deposited data

Results flagged for a closer look

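Of 48 sets of values, 1 for each member and group with more than 3 counts in some library, 6 held a library that stood apart by the ratio of its gap to the range. The cut-offs give about 1 in 20 by chance for normally distributed values only. Some sets were mostly 0, where a single raised library is flagged by construction. The number of flags is therefore not compared with chance. Osm was at 6.66 RPKM in Flt3 ITD/ITD MSC replicate 5 and at 0.28 RPKM in Flt3+/+ MSC replicate 5, where the next highest library of either group had 0.02 RPKM. Leukocyte markers were raised in these libraries, and their part in the Osm values was not tested. Osmr was at 0.78 RPKM in Flt3 ITD/ITD MNC replicate 2, where the other 3 libraries were at 0. Il11 was at 21.29 RPKM in Flt3+/+ MSC replicate 3, where the next highest was 5.46 RPKM. Lifr was at 75.9 RPKM in Flt3+/+ EC replicate 4, where the next highest was 32.82 RPKM. Il6st was at 50.19 RPKM in Flt3+/+ EC replicate 1, where the next lowest was 75.49 RPKM. That library also held the highest erythroid marker sum among ECs, 1250.64 RPKM, and a leukocyte marker sum of 1269.95 RPKM. Flt3 ITD/ITD EC replicates 1 and 3 had lower Il6st, at 47.22 and 39.46 RPKM, with erythroid sums of 0 and 0.3 RPKM. The part of blood cells in the Il6st value was not tested.

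The genotype effect on Socs2 differed between populations in the edgeR interaction test, by a log2 difference of -3.56 for ECs against MNCs and -3.66 for MSCs against MNCs. In ECs and MSCs Socs2 ranged from 27.25 to 120.41 RPKM with the genotypes overlapping.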

How the results depend on the processing

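Of 1338 alternative values for log2 fold changes of members, 1288 kept their direction and their side of the threshold, 22 lost a call, 8 gained one and 20 changed sign. Of 441 for counts of calls and other values, 423 stayed within 1.5 times, where 0 against 0 was taken as the same. Members called between genotypes, in the interaction contrasts and in the exact test were 0 in every fit that left out 1 library. The 423 therefore do not measure stability alone. DESeq2 was run first without the low-count filter and then, after those values had been seen, on the filtered genes, so that 1 choice changed at a time. With the filter it called 1 pathway gene in MSCs and 1 member in MNCs between genotypes, and without it 2 and 1, not set against shares of all genes. The DESeq2 adjusted p of Il6st in MNCs was 0.0472 with the filter and 0.0578 without it. That of Il6 between MSCs and ECs was 0.0726 and 0.0815. In MNCs, pathway genes called between genotypes numbered 0 with the replicate number as block, 0 in replicates 1 and 2 alone, 3 in replicates 3 and 4 alone, 0 with a term for that division and 0 to 1 when 1 library was left out, kept only without Flt3+/+ replicate 3. Members called in MNCs numbered 1 in replicates 3 and 4 alone. These divisions were chosen after seeing the data. Between MSCs and ECs, 3 members were called with the replicate block, where Osm (adjusted p = 0.395), Il11 (0.15) and Il6ra (0.112) lost their call, and 3 in Flt3+/+ libraries alone. Both counts are given without the shares of all genes in those fits. The labels do not say whether libraries with the same replicate number share a mouse or a day. Correlations of same-numbered deviations ranged from -0.072 to 0.066. Such values cannot show that the libraries were unpaired, so the fit with the block is not set aside. With the block, log2 fold changes between genotypes in MSCs became 0.18 for Il11, 0.02 for Il6ra and -0.22 for Stat3. In MSCs, that of Lif became -0.2 without the libraries with leukocyte transcripts. In MNCs, Il6 became 0.82 and Stat3 0.09 in replicates 1 and 2, and Il11 0.24 in replicates 3 and 4. When 1 library was left out, ranges that crossed 0 were -0.34 to 0.03 for Il11 and -0.29 to 0.11 for Stat3 in MNCs, and -0.69 to 0.91 for Il11, -0.02 to 0.35 for Il6st, -1.27 to 0.98 for Lif and -0.26 to 0.36 for Stat3 in MSCs. None of these was called, and the cause was not tested. Depth limits Lif and Osm in ECs and Lif and Osmr in MNCs, where most libraries held 0 to 5 counts.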

Other observations

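Ciliary neurotrophic factor, Cntf, a further ligand that acts through gp130 and Lifr, was chosen here after its values were seen. Its median was 0 RPKM in ECs and in MSCs, while a single EC library held 316 of the 344 counts and a single MSC library 197 of the 219, at 10.11 and 5.66 RPKM. In MNCs it ranged from 0 to 1.28 RPKM. Cntf lies next to Zfp91 and shares read-through transcripts with it, so its counts are uncertain. The cardiotrophin genes Ctf1 and Ctf2 had at most 2 counts in any library.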
